A study of Mus musculus with 13 samples.

Results

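The 8 genes described here encode the kinases that phosphorylate splicing factors: the CDC-like kinases Clk1, Clk2, Clk3 and Clk4, the SR protein kinases Srpk1 and Srpk2, the DYRK family kinase Dyrk1a, and the spliceosomal kinase Prpf4b. They were taken by gene symbol, from the 55421 genes of the deposited bulk RNA-seq tables, and all 8 were found. The study compared mouse hematopoietic stem and progenitor cells (HSPCs), the name the bulk labels give, carrying a mutated Srsf2, lacking Setd2, or both. The bulk libraries fell into 4 groups by their labels: 3 libraries of Srsf2 mutated cells, 3 of the double mutant, 2 of Setd2 knockout and 2 of wild type. For the single-cell samples of the same series, which were not analysed here, the labels describe lineage-negative c-Kit+ bone marrow progenitors from transplanted mice. Those mice were Mx1-Cre+, with Srsf2P95H/+ for the mutation and Setd2fl/fl with Srsf2P95H/+ for the double mutant, taken 4 weeks after pIpC, the agent that switches on Mx1-driven Cre in blood cells and other interferon-responsive cells. For the bulk libraries the labels name HSPCs without these alleles, markers of the sort or the time, and do not say that replicates came from separate mice, so that p-values measure only the spread between these libraries, which may be technical.

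SR proteins are splicing factors with long runs of arginine-serine dipeptides (RS domains), and their position and activity depend on how many of those serines carry phosphate. SRPKs act mainly in the cytoplasm, where RS domain phosphorylation allows import into the nucleus; CLKs act in the nucleus, where further phosphorylation releases SR proteins from storage speckles to sites of transcription. Transcripts of the CLK genes are themselves spliced in alternative ways, with forms that keep introns in the nucleus or skip the exon needed for an active kinase. Prpf4b phosphorylates proteins of the tri-snRNP as the spliceosome becomes active, and Dyrk1a phosphorylates SR proteins among many other substrates. Srsf2 is one of the SR proteins, and Setd2 is the enzyme that places trimethyl marks on histone H3 over transcribed genes.

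Total counts lay between 32117387 and 50445434 a library. The 8 kinase genes had 1297 to 15139 counts each in every library, so that the counting error of the lowest was 2.8%, and all 8 passed the filter on low counts. Setd2 had 151.7 ± 9.63 CPM (counts scaled to a common library size, with TMM factors; SD, n = 2) in wild type while the libraries labelled Setd2 knockout had 221.7 ± 12.9 (n = 2); a count over the whole gene does not check a deletion of some exons, so the groups are named as labelled. Xist, which is made from the inactive X of female cells, had a mean of 485.5 CPM in wild type and at most 7.405 in the other groups, and the Y-linked Ddx3y had 0 in wild type and Setd2 knockout and 111.2 and 123.6 in the others. Sex-linked genes therefore differed between wild type and every mutant group, and between Setd2 knockout and the groups with the Srsf2 mutation, and in those comparisons cannot be told apart from genotype. Srsf2 mutated and double mutant libraries both had Ddx3y with little Xist, and the Setd2 knockout libraries were low in both. The summed level of 6 stem and progenitor markers was 12850 to 12903 CPM in wild type, 7562 to 8133 in Setd2 knockout, 4738 to 5279 with the Srsf2 mutation alone and 3550 to 3681 in double mutant libraries. That of 5 erythroid markers ran from 45.1 to 45.2, 129 to 133, 3027 to 3783 and 11024 to 11753 CPM in the same order, and that of 5 late neutrophil markers from 11321 to 15833, 4043 to 4558, 9540 to 12102 and 22245 to 22838. Among the progenitor markers Kit lay at 159 to 455 and Cd34 at 154 to 308 CPM over the libraries, so other markers made up most of each sum. All 6 progenitor markers and all 5 markers of each of the other lists just named had counts in every library. Their part in the kinase results was not tested, and in bulk samples fewer cells of a type and less RNA per cell cannot be told apart. Srsf2 mutated replicate 3 had the lowest level of its group for 6 of the 8 kinases.

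On GRCm38, in the GENCODE M21 annotation, the 4 CLK genes are short: Clk1 (chr1:58410189-58424066, minus strand), Clk2 (chr3:89164795-89176921, plus), Clk3 (chr9:57750624-57765860, minus) and Clk4 (chr11:51261730-51281766, plus) each span at most 20 kb. Srpk1 lies at chr17:28587648-28622709 (minus), Srpk2 at chr5:23503264-23684617 (minus), Dyrk1a at chr16:94570010-94695517 (plus) and Prpf4b at chr13:34875302-34906064 (plus), with Srpk2 the longest at 181 kb. Counts cover all annotated transcripts of a gene together. For Clk1, 7 of the 13 annotated transcripts are of the retained-intron class, 2 are marked for nonsense-mediated decay and 1 is protein-coding. For Clk4 the numbers are 7 retained-intron, 3 nonsense-mediated decay and 4 protein-coding of 14, while Dyrk1a has 1 retained-intron transcript and 5 protein-coding of 6. A rise in the count of a CLK gene therefore does not say which of these forms rose.

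Clk1 and Clk4, closely related kinases, had the largest differences from wild type of the 8 genes in both the Setd2 knockout and the Srsf2 mutated group. Clk1 had 74.9 and 58.8 CPM in the wild type libraries, 181 and 167 in Setd2 knockout, 289, 305.5 and 292.5 with the Srsf2 mutation alone, and 307, 294 and 313 in double mutant libraries. The wild type libraries were lowest and Setd2 knockout stood between, with no overlap, while the Srsf2 mutated and double mutant ranges overlapped. The log2 fold change against wild type was 1.38 (SE 0.0977; adjusted p = 3.83e-08, edgeR's quasi-likelihood test with Benjamini-Hochberg adjustment over 19289 genes) in Setd2 knockout and 2.14 (SE 0.0948; adjusted p = 3.41e-11) in Srsf2 mutated. Between double mutant and Srsf2 mutated the Clk1 difference was 0.04 (SE 0.0774; adjusted p = 0.718). Clk4 had 34.0 and 30.5 CPM in wild type, 93.7 and 86.2 in Setd2 knockout, 104, 101 and 106 with the Srsf2 mutation alone, and 115, 122 and 122 in double mutant libraries. In CPM the 4 groups of Clk4 did not overlap and lay in that order. Its log2 fold change against wild type was 1.48 (SE 0.084; adjusted p = 4.03e-09) in Setd2 knockout and 1.68 (SE 0.0796; adjusted p = 8.02e-11) in Srsf2 mutated. The further step of Clk4 from Srsf2 mutated to double mutant was 0.21 (SE 0.0659; adjusted p = 0.0203). That call ended with upper-quartile scaling (adjusted p = 0.0736) and without Setd2 knockout replicate 1 or 2, Srsf2 mutated replicate 1, or double mutant replicate 2 or 3 (adjusted p from 0.0776 to 0.108).

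Clk2 was highest in Setd2 knockout and Clk3 in double mutant libraries. Clk2 had 51.5 and 54.3 CPM in wild type, 86.3 and 91.98 in Setd2 knockout, 80.5, 88.5 and 71.4 with the Srsf2 mutation alone, and 71.2, 74.7 and 69.3 in double mutant libraries. Every mutant library lay above both wild type libraries, and neighbouring mutant groups overlapped. Clk2 rose by 0.75 (log2; SE 0.0965; adjusted p = 1.85e-05) in Setd2 knockout and by 0.60 (SE 0.0892; adjusted p = 3.26e-05) in Srsf2 mutated libraries. Clk2 in double mutant against Srsf2 mutated libraries gave -0.16 (adjusted p = 0.133), and it was called without Srsf2 mutated replicate 3 (adjusted p = 0.00822) and with upper-quartile scaling (adjusted p = 0.0446).

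Clk3 had 47.3 and 50.2 CPM in wild type, 68.5 and 67.2 in Setd2 knockout, 78.1, 85.3 and 70.4 with the Srsf2 mutation alone, and 129, 137 and 135 in double mutant libraries. In CPM the 3 double mutant libraries stood far above the other 7, and no groups overlapped. Clk3 rose by 0.48 (log2; SE 0.0905; adjusted p = 0.000631) in Setd2 knockout, by 0.68 (SE 0.0839; adjusted p = 4.78e-06) with the Srsf2 mutation alone, and by a further 0.78 (SE 0.0731; adjusted p = 4.39e-07) from Srsf2 mutated to double mutant. It was the kinase with the largest difference in that last comparison. Clk3 shares 1284 bases, 15.2% of its exon sequence, with Edc3 on the opposite strand, and whether the counting used strand is not given in the sources used here. Edc3, a decapping enhancer, fell by 0.54 in Setd2 knockout and by 1.13 in Srsf2 mutated on the log2 scale, where Clk3 rose. It gave -0.03 (adjusted p = 0.764) in double mutant against Srsf2 mutated. The part of the shared bases in the Clk3 values was not tested.

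Among the SRPKs, Srpk1 was high in Setd2 knockout and Srpk2 low in Srsf2 mutated libraries. Srpk1 had 129.5 and 124 CPM in wild type, 205 and 208 in Setd2 knockout, 139.5, 142 and 128.5 with the Srsf2 mutation alone, and 124, 125 and 124 in double mutant libraries. Both Setd2 knockout libraries stood above all 8 others, which overlapped between groups. Srpk1 rose by 0.70 (log2; SE 0.0735; adjusted p = 2.4e-06) in Setd2 knockout against wild type. Its difference was 0.11 (SE 0.0672; adjusted p = 0.189) in Srsf2 mutated against wild type and -0.03 (adjusted p = 0.724) in double mutant against wild type. The former was called with upper-quartile scaling (adjusted p = 0.0168) and without Srsf2 mutated replicate 3 (adjusted p = 0.0278). A minimum mean of 10 CPM also gave that call (adjusted p = 0.00235). Srpk2 had 86.0 and 76.5 CPM in wild type, 78.7 and 68.6 in Setd2 knockout, 68.6, 65.8 and 54.7 with the Srsf2 mutation alone, and 89.3, 81.1 and 83.3 in double mutant libraries. The Srsf2 mutated libraries were the lowest, with the highest of them level with the lower Setd2 knockout library at 68.6 CPM. Srpk2 fell by 0.37 (log2; SE 0.0987; adjusted p = 0.00506) in Srsf2 mutated against wild type, and was higher by 0.42 (SE 0.0891; adjusted p = 0.00146) in double mutant against Srsf2 mutated. The fall ended as a call without wild type replicate 1 (adjusted p = 0.0726) and with a minimum mean of 10 CPM (adjusted p = 0.0887). Srpk2 shares 972 exon bases, 6.99% of its own, with Kmt2e on the opposite strand, which passed the test in none of the 3 comparisons (0.10, 0.07 and 0.24).

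Dyrk1a passed the test in none of the comparisons with wild type, and Prpf4b rose in every mutant group. Dyrk1a had 111 and 111 CPM in wild type, 101 and 102 in Setd2 knockout, 129.7, 134 and 108.5 with the Srsf2 mutation alone, and 124, 111.5 and 122 in double mutant libraries. The Setd2 knockout libraries were the lowest of the 10 in CPM. The differences of Dyrk1a against wild type were -0.14 (adjusted p = 0.278), 0.16 (adjusted p = 0.122) and 0.10 (adjusted p = 0.316) in Setd2 knockout, Srsf2 mutated and double mutant libraries. The second of these was called without Srsf2 mutated replicate 3 (adjusted p = 0.00227) and with upper-quartile scaling (adjusted p = 0.0179). A minimum mean of 10 CPM also gave that call (adjusted p = 0.00593). Prpf4b had 136 and 120.4 CPM in wild type, 265 and 242 in Setd2 knockout, 190.3, 193 and 160.4 with the Srsf2 mutation alone, and 191, 191 and 199 in double mutant libraries. All mutant libraries lay above wild type, and the Setd2 knockout libraries were highest. Prpf4b rose by 0.98 (log2; SE 0.0954; adjusted p = 1.08e-06) in Setd2 knockout, by 0.50 (SE 0.0877; adjusted p = 0.000162) with the Srsf2 mutation alone and by 0.59 in double mutant libraries against wild type. Its difference between double mutant and Srsf2 mutated was 0.09 (SE 0.0772; adjusted p = 0.387).

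**Figure D1:**
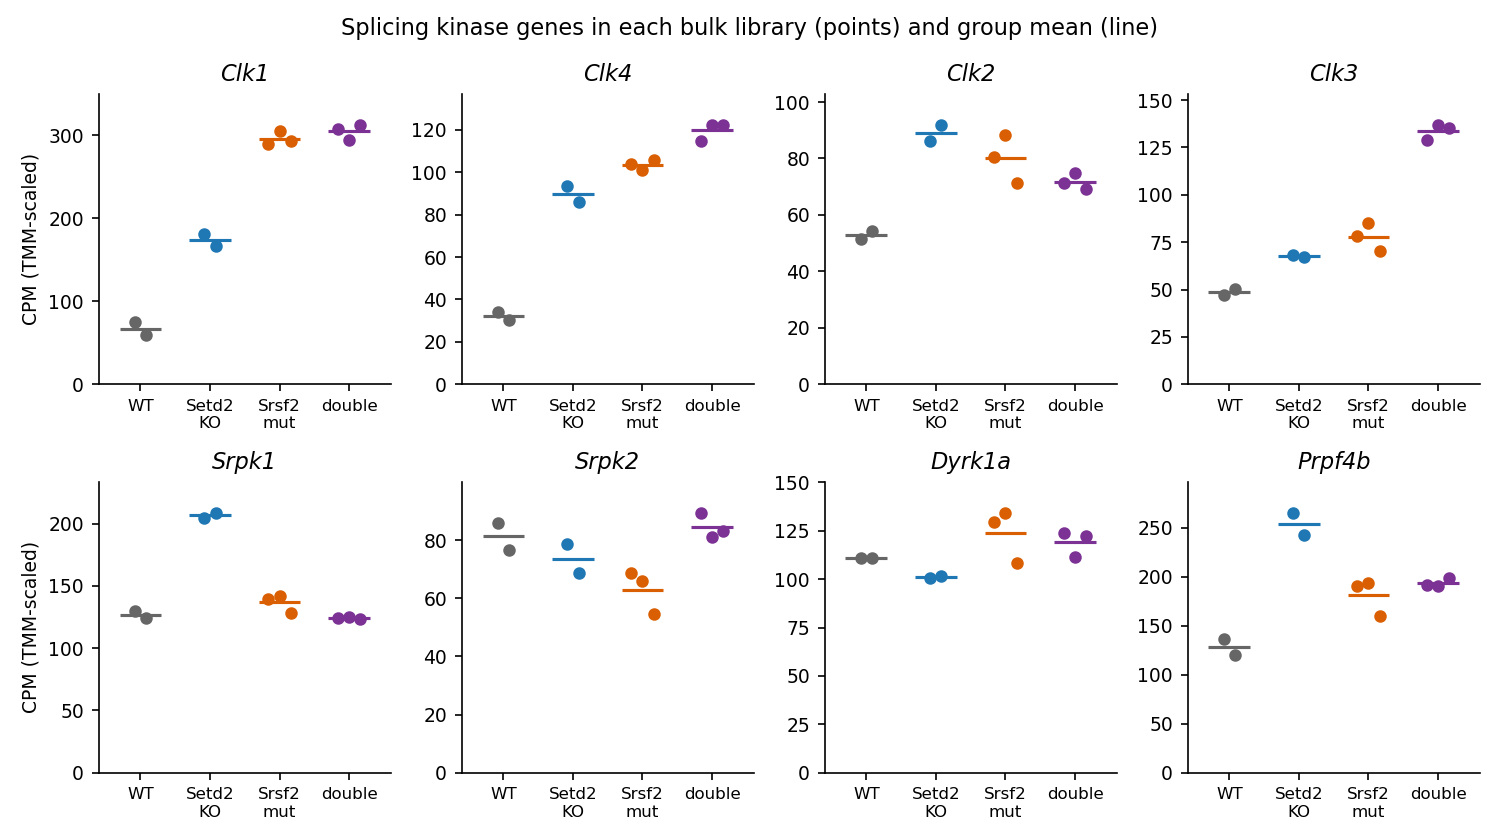
Each panel plots 1 kinase gene in TMM-scaled CPM (vertical axis, from 0) for each library (points) of the 4 groups, with the group mean as a line. Clk1 and Clk4 are lowest in the 2 wild type libraries, Srpk1 and Prpf4b are highest in Setd2 knockout, and Clk3 is highest in the double mutant at 129 to 137 CPM.

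Whether a Setd2 knockout went with the same difference in both Srsf2 backgrounds was tested as an interaction, the log2 difference between double mutant and Srsf2 mutated less that between Setd2 knockout and wild type. Of the 8 kinases 5 had a lower and 1 a higher value in the mutated background, where 31.9% of all genes tested were called, 16.7% higher and 15.2% lower. The interaction was -1.34 (SE 0.124; adjusted p = 6.01e-07) for Clk1, -1.27 (SE 0.106; adjusted p = 1.96e-07) for Clk4, -0.91 (SE 0.124; adjusted p = 3.38e-05) for Clk2, -0.89 (SE 0.122; adjusted p = 3.87e-05) for Prpf4b and -0.84 (SE 0.0948; adjusted p = 5.03e-06) for Srpk1. Srpk2 was the exception at 0.57 (SE 0.14; adjusted p = 0.00564), and its call ended without Setd2 knockout replicate 2 (0.42; adjusted p = 0.0754). Clk3, which was higher with the knockout in both backgrounds, gave 0.30 (SE 0.116; adjusted p = 0.0603), and was called without Srsf2 mutated replicate 2 (adjusted p = 0.0122) or 3 (adjusted p = 0.0475). Dyrk1a gave 0.08 (SE 0.122; adjusted p = 0.684). The median over the 8 kinases was -0.86 beside -0.07 over all genes. Upper-quartile scaling moved the median of all genes by -0.15 and the share of called genes that were higher from 52.4% to 37.6%. The interaction uses all 4 groups, and the comparisons with wild type share the wild type libraries. Xist differed between Setd2 knockout and wild type, while Srsf2 mutated and double mutant libraries both had Ddx3y with little Xist. The interaction values, here and for the gene lists below, therefore cannot be told apart from that difference.

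**Figure D2:**
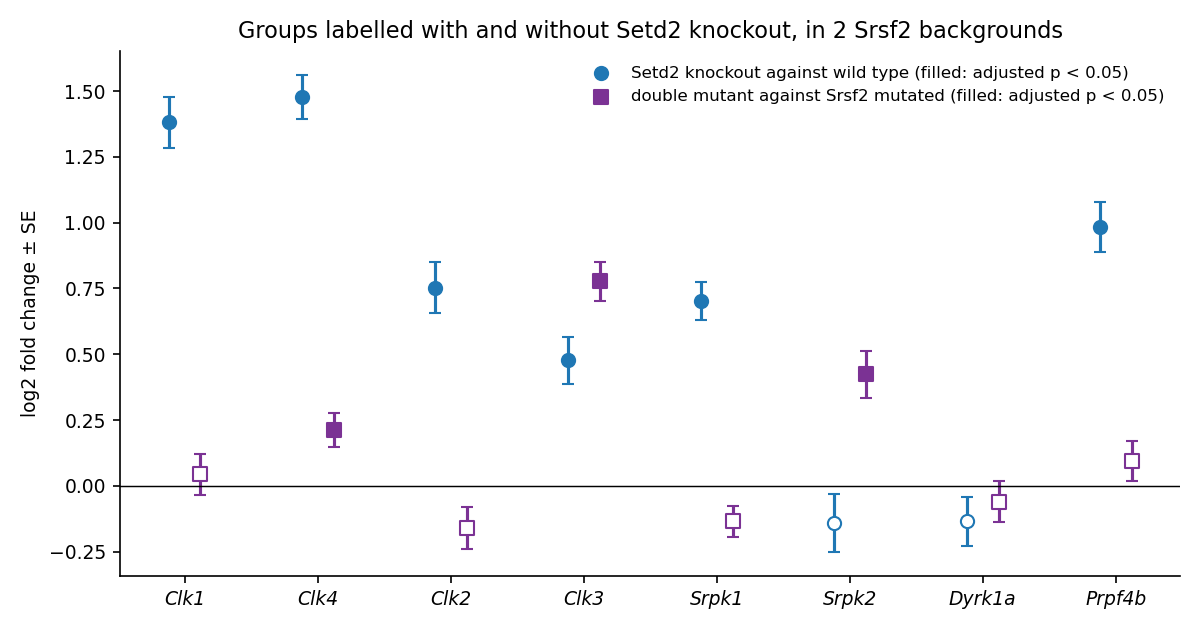
The log2 fold change (vertical axis, with SE) of each kinase gene is drawn for Setd2 knockout against wild type (circles) and double mutant against Srsf2 mutated (squares), filled where the adjusted p was under 0.05. Clk1, Clk4, Clk2, Srpk1 and Prpf4b lie at 0.70 to 1.48 as circles and at -0.16 to 0.21 as squares, while Clk3 is raised in both; under upper-quartile scaling the Clk4 square was not called and the Clk2 and Srpk1 squares were.

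By comparison, 6 of the 8 kinases rose and 0 fell in Setd2 knockout against wild type, where 38.6% of genes were called, 18.7% higher and 19.9% lower. With upper-quartile scaling the share of called genes that were higher in this comparison went from 48.4% to 59.5%. In Srsf2 mutated against wild type 5 rose and 1 fell, beside 56.3% called over all genes, 28.5% higher and 27.8% lower. In double mutant against Srsf2 mutated 3 were higher (Clk3, Srpk2 and Clk4) and 0 lower, beside 33.8% called (17.8% higher and 15.9% lower), a share near that of the kinases. This count was 5 without Srsf2 mutated replicate 3. The median log2 fold change of the 8 was 0.73, 0.55 and 0.07 in these 3 comparisons, and that of all genes 0.04, 0.08 and 0.00. Against wild type, 5 rose in the double mutant (Clk1 by 2.19, Clk4 by 1.89, Clk3 by 1.46, Prpf4b by 0.59 and Clk2 by 0.44), and 0 fell, beside 63.0% called over all genes, 33.5% higher and 29.5% lower. Set against Setd2 knockout, the double mutant had 4 that were higher (Clk3 by 0.98, Clk1 by 0.81, Clk4 by 0.41 and Dyrk1a by 0.24) and 3 lower (Srpk1 at -0.73, Prpf4b at -0.39 and Clk2 at -0.31), beside 51.8% called, 26.0% higher and 25.8% lower. The Dyrk1a call (adjusted p = 0.031) ended with upper-quartile scaling (adjusted p = 0.0763) and without Setd2 knockout replicate 1 or 2, Srsf2 mutated replicate 1, or double mutant replicate 1 or 3 (adjusted p from 0.09 to 0.285). In Srsf2 mutated against Setd2 knockout 3 were higher (Clk1 by 0.76, Dyrk1a by 0.30 and Clk4 by 0.20) and 2 lower (Srpk1 at -0.60 and Prpf4b at -0.48), beside 46.3% called, 23.1% higher and 23.2% lower. Without Setd2 knockout replicate 1, or without replicate 2, this count of 5 was 3, since Clk4 and Dyrk1a were no longer called. The Clk4 call (adjusted p = 0.0354) also ended without Srsf2 mutated replicate 1 or double mutant replicate 2 or 3 (adjusted p from 0.0523 to 0.357 over these libraries), with no filter on low counts (adjusted p = 0.0789) and with only the 2 groups fitted (adjusted p = 0.0553). Clk3 in Srsf2 mutated against Setd2 knockout (0.20; adjusted p = 0.0558) was called with median-of-ratios or upper-quartile scaling, a minimum mean of 10 CPM or DESeq2 (adjusted p from 0.0233 to 0.0491), and without Srsf2 mutated replicate 3 (adjusted p = 0.00234). Srpk2 in double mutant against Setd2 knockout (0.20; adjusted p = 0.109) was called with only the 2 groups fitted (adjusted p = 0.00442), with a minimum mean of 10 CPM (adjusted p = 0.0378) and without Srsf2 mutated replicate 3 (adjusted p = 0.0264).

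Compared per gene length, in TPM within each library, the order of the 8 kinases differed between groups. The length is that of all annotated exons of a gene together, retained-intron transcripts included. Levels set between genes depend on it, and it may exceed the length of the transcripts present. In wild type Prpf4b (42.7 ± 5.21 TPM, SD, n = 2) and Dyrk1a (37.7 ± 1.35) were the most abundant and Clk4 (15.6 ± 1.73) the least, with Clk1 in the fifth place at 23.1 ± 4.7. In Srsf2 mutated and double mutant libraries Clk1 came first, at 109 ± 9.53 and 95.3 ± 4.32 TPM (n = 3 each), ahead of Prpf4b at 64.9 ± 10.2 and 58.4 ± 2.07. Srpk2 was the least abundant in every mutant group, at 13.7 to 18.5 TPM. TPM takes no TMM factor, and the order of groups for a gene could differ from that in CPM. Clk4 had 54.3 ± 4.56 TPM in Setd2 knockout, 53.6 ± 2.18 with the Srsf2 mutation alone and 52.5 ± 1.88 in double mutant libraries. These 3 groups overlapped. Clk3 had 28.1 ± 1.09 in Setd2 knockout and 27.8 ± 4.4 with the Srsf2 mutation alone, which also overlapped. Dyrk1a had 42.8 ± 0.783 in Setd2 knockout, above both wild type libraries. The make-up of the CLK transcripts differed as well. Clk1 held 27.8% ± 3.61 (n = 2) of the summed TPM of the 4 CLK genes in wild type, 34.7% ± 1.16 (n = 2) in Setd2 knockout, 46.3% ± 0.908 (n = 3) with the Srsf2 mutation alone and 42.8% ± 1.31 (n = 3) in double mutant libraries. The share of Clk2 went the other way, from 33.9% ± 2.66 in wild type to 15.5% ± 0.678 in the double mutant. Clk3 held 11.7% ± 0.709 with the Srsf2 mutation alone and 18.1% ± 0.427 in double mutant libraries.

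The ratio of summed CLK to summed SRPK transcripts does not depend on how libraries are scaled to each other. Its size does depend on the gene lengths used. The ratio in wild type was 1.83 ± 0.0133 (SD, n = 2), 2.81 ± 0.029 (n = 2) in Setd2 knockout, 5.05 ± 0.253 (n = 3) with the Srsf2 mutation alone and 5.42 ± 0.164 (n = 3) in double mutant libraries. The ranges were 1.83 to 1.84, 2.79 to 2.83, 4.81 to 5.31 and 5.24 to 5.55, so that only the last 2 groups overlapped. Both terms of the ratio differed between groups: the summed CLK level was 82.7, 216, 236 and 222 TPM and the summed SRPK level 45.1, 76.9, 46.9 and 41.0 TPM in the same order.

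**Figure D3:**
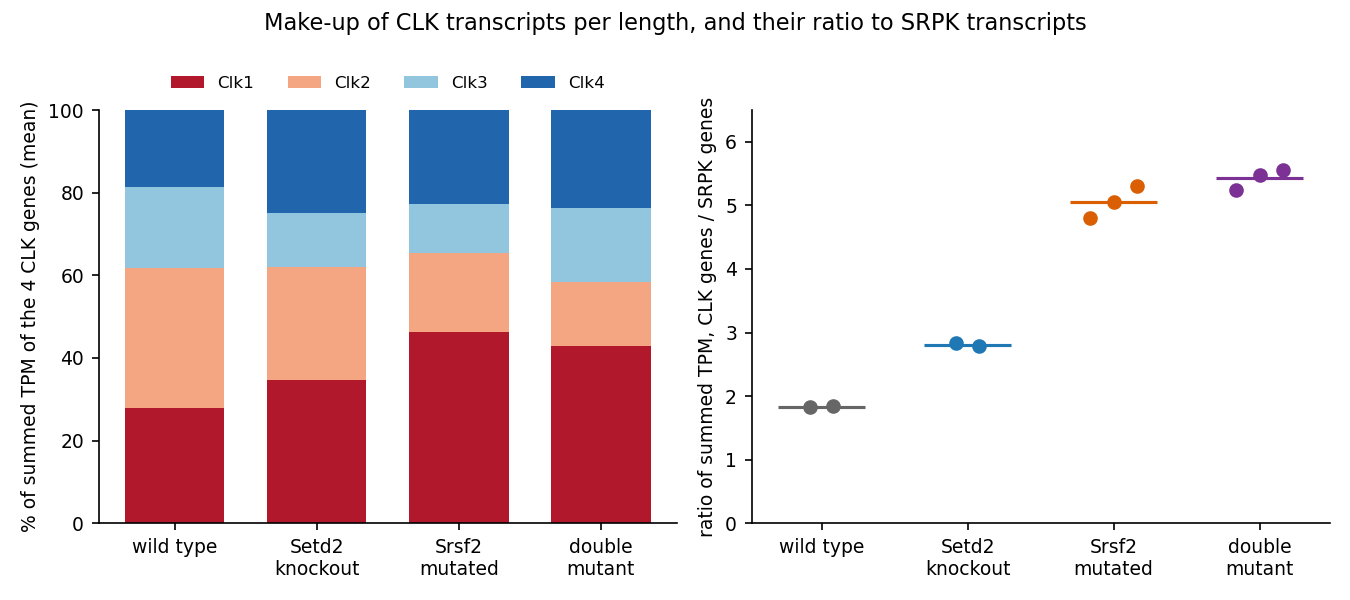
The left panel shows the mean share (%) of each CLK gene in the summed TPM of the 4 CLK genes, by group, and the right panel the ratio of summed CLK to summed SRPK TPM in each library (points) with the group mean (line). Clk1 grows from 27.8% in wild type to 46.3% with the Srsf2 mutation alone, and the ratio from 1.83 to 5.05.

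The sequences before 2 of the CLK starts are shown. Both genes rose in every mutant group, as did Clk1, Clk3 and Prpf4b, and Clk4 rose by more than Clk2. The letters of the cyclic AMP response element, a motif of stress- and signal-responsive promoters, stand in full in the window of Clk4 alone among the kinases searched. RefSeq entries on GRCm38.p6 were found for 7 of the 8 genes, with 11 windows of 250 bases before a start; Clk1 had no entry. Capitals mark TGACG or its reverse complement, which overlap in the full element.

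Clk4, chr11:51262864-51263113, plus strand: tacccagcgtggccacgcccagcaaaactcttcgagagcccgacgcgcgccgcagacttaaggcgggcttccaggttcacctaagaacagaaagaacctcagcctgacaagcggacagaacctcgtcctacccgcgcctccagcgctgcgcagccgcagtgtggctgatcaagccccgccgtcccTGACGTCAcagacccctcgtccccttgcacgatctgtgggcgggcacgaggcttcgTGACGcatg

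Clk2, chr3:89164545-89164794, plus strand: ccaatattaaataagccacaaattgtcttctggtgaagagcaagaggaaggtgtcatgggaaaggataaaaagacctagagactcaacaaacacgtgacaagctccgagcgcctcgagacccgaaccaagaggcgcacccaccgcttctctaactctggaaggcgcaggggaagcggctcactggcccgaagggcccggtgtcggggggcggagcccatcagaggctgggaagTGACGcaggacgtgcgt

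The Clk4 window holds TGACGTCA beginning 65 bases before the start and a further TGACG at 9 bases, while the Clk2 window holds TGACG at 17 bases. The Clk4 window lies inside the gene as GENCODE draws it, in intronic sequence, and that of Clk2 ends just before the annotated gene. Annotated exons of the same gene filled all 250 bases of the Clk3 window, 227 of Prpf4b, 188 of Srpk1 and 196 of 1 Dyrk1a window. The other windows held 0 to 47 such bases. On either strand TGACGTCA was found in 1.55% of 32851 RefSeq windows of the same length and TGACG, which the longer motif contains, in 17.8%. Clk3 held TGACG as well. The heat shock element pair GAANNTTC (6.69% of windows) was in no window of the 7 genes, and the ETS core CCGGAAG (6.91%) was in those of Clk3 and Prpf4b. The GC box GGGCGG (32.7%) was in a window of each of the 7 genes. These are matches of letters and no record of binding.

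Genes for RS domain proteins beyond the SR family, which CLKs and SRPKs can phosphorylate, rose together with the kinases against wild type. Of 24 such genes 20 rose and 0 fell in Setd2 knockout (median log2 0.62, beside 0.04 over all genes), and 17 rose and 0 fell in Srsf2 mutated libraries (0.45, beside 0.08). Over all genes 18.7% rose and 19.9% fell in the first comparison, and 28.5% rose and 27.8% fell in the second. In double mutant against Srsf2 mutated 1 was higher (Rbm39) and 5 lower (Rsrc1, Rnps1, Srek1, Pnn and Arglu1; median -0.06), and with upper-quartile scaling 0 and 9. Over all genes 17.8% were higher and 15.9% lower in that comparison. Pnisr, which encodes a serine- and arginine-rich nuclear protein, had 38.5 ± 1.47 CPM (SD, n = 2) in wild type, 142 ± 8.7 (n = 2) in Setd2 knockout and 144 ± 7.02 (n = 3) in Srsf2 mutated libraries. Its log2 fold changes were 1.89 (SE 0.0811; adjusted p = 2.26e-10) and 1.90 (SE 0.0769; adjusted p = 1.14e-11). Arglu1, a coactivator and splicing modulator, rose by 1.42 and 1.44, and Srek1, an SR-related splicing regulator, by 1.29 and 1.06. In the interaction 0 of the 24 were higher and 20 lower (median -0.55, beside -0.07), led by Pnisr at -1.76, Srek1 at -1.59 and Arglu1 at -1.58. Over all genes 16.7% were higher and 15.2% lower in the interaction.

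The 13 SR protein genes, the best known substrates, moved less evenly. In Setd2 knockout 7 rose and 1 (Srsf9) fell, and in Srsf2 mutated libraries 8 rose and 2 fell (Srsf1 and Srsf2, of which 0 were called with upper-quartile or median-of-ratios scaling). Over all genes 18.7% rose and 19.9% fell in Setd2 knockout, and 28.5% rose and 27.8% fell in Srsf2 mutated libraries. Srsf5 led both, with 156 ± 1.69 CPM in wild type (SD, n = 2), 341 ± 0.0958 (n = 2) in Setd2 knockout and 663 ± 28.8 (n = 3) in Srsf2 mutated, for log2 fold changes of 1.13 (SE 0.0724; adjusted p = 1.3e-08) and 2.09 (SE 0.0707; adjusted p = 1.54e-12). Srsf11 rose by 0.66 and 0.85 in the same comparisons. Srsf3 fell by 0.20 and Srsf9 by 0.29 from Srsf2 mutated to double mutant, and Srsf12 was higher at a mean of 0.26 CPM against 0.0076, too few counts for a fold. In the interaction 0 were higher and 7 lower, with Srsf5 at -1.08, Srsf11 at -0.73 and Srsf7 at -0.48. The shares over all genes were 16.7% higher and 15.2% lower.

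**Figure D4:**
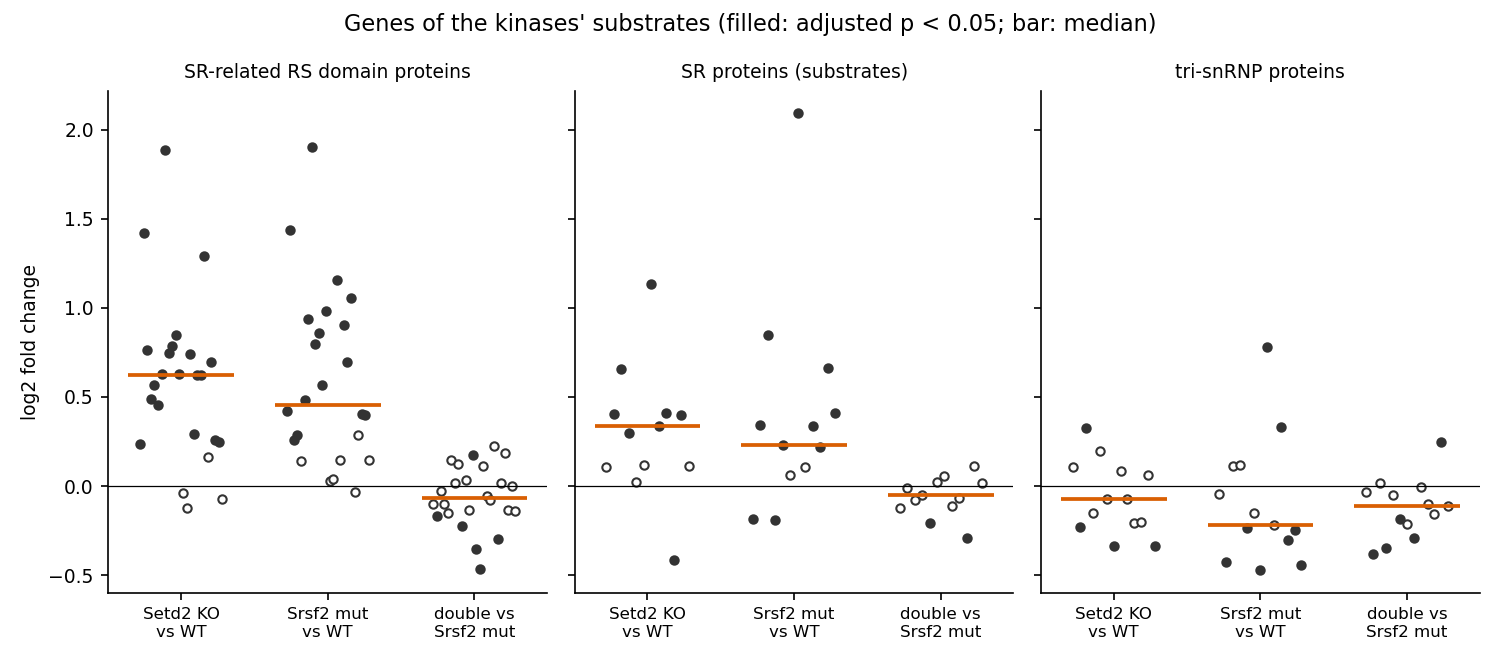
Each point is the log2 fold change of 1 gene, by comparison, for RS domain protein, SR protein and tri-snRNP genes, filled where the adjusted p was under 0.05, with the median of the list as a bar (Srsf12, at very low counts, enters the median but is not drawn). The medians of the RS domain genes are 0.62, 0.45 and -0.06 from left to right; upper-quartile scaling left the first 2 positive and the last negative, and moved the tri-snRNP median in Setd2 knockout from -0.07 to 0.02.

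Genes for enzymes and carriers that act against or alongside the kinases fell more often than they rose against wild type, by a margin that depended on the scaling. Among 12 genes for phosphatases of SR proteins, their import receptor and SRPK partners, 1 rose and 6 fell in Setd2 knockout, and 2 rose and 7 fell in Srsf2 mutated libraries; with upper-quartile scaling the counts were 4 and 5, and 3 and 5. Over all genes 18.7% rose and 19.9% fell in the first comparison, and 28.5% rose and 27.8% fell in the second. The catalytic subunit genes Ppp2cb (fell by 0.74 and 0.54) and Ppp1ca (fell by 0.67 and 0.30) were lower in both, and Nxf1, an mRNA export receptor that binds SR proteins, rose by 0.61 and 0.69. The import receptor gene Tnpo3 gave 0.16 (adjusted p = 0.133) and -0.04 (adjusted p = 0.683). From Srsf2 mutated to double mutant 2 of the 12 were higher (Top1 by 0.29 and Ppp1cb by 0.25) and 2 lower (Ahsa1 by 0.22 and Ppp1ca by 0.19 on the log2 scale). The share called over all genes, 33.8%, is near that of this list. Of the 13 tri-snRNP genes, whose proteins include targets of Prpf4b, 1 rose (Prpf3) and 3 fell (Usp39, Prpf8 and Eftud2) in Setd2 knockout, and 2 rose (Sart1 and Snrnp27) and 6 fell in Srsf2 mutated libraries. Eftud2, the GTPase of the spliceosome, fell by 0.23, by 0.42 and, from Srsf2 mutated to double mutant, by a further 0.38. With upper-quartile scaling these counts were 3 and 1, and 4 and 3, so the direction of this list depends on the scaling. Its called shares are also near the 38.6% and 56.3% of all genes. In double mutant against Srsf2 mutated 1 was higher and 4 lower, and in the interaction only Prpf3 was called (-0.31; adjusted p = 0.0412).

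Of 11 other kinases tested from the DYRK, HIPK, SRPK and splicing CDK families, 3 rose (Cdk11b, Hipk4 and Srpk3) and 1 fell (Hipk1) in Setd2 knockout, 5 rose (those 3 with Dyrk2 and Dyrk3) and 1 fell (Hipk3) with the Srsf2 mutation alone, and 6 were higher and 1 lower in double mutant against Srsf2 mutated libraries. With upper-quartile scaling 0 fell in Setd2 knockout or with the Srsf2 mutation alone. The shares called in these 2 comparisons with wild type are near those over all genes, 38.6% and 56.3%. In double mutant against Srsf2 mutated 33.8% of all genes were called, 17.8% higher and 15.9% lower. Cdk11b, a cyclin L-dependent kinase of splicing and transcription, rose in all 3 comparisons, by 0.54 (SE 0.0835; adjusted p = 0.00011), 1.23 (SE 0.0788; adjusted p = 2.99e-09) and 0.38 (SE 0.0672; adjusted p = 0.000371). Dyrk3, which dissolves condensates of splicing factors, rose by 1.35 with the Srsf2 mutation alone and Dyrk2 by 0.86; from there Dyrk2 fell by 0.59 in the double mutant. Cdk12, a kinase of elongating RNA polymerase, was higher by 0.52 in double mutant against Srsf2 mutated. Srpk3, the third SRPK, had 0.40 CPM in wild type and 3.74 in Srsf2 mutated libraries, far below Srpk1 and Srpk2.

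CLK genes are known to respond to heat and other stress, so 15 immediate early and heat shock genes were set beside them. Their summed level was 2945 to 4426 CPM in wild type, 3792 to 3831 in Setd2 knockout, 10397 to 10807 with the Srsf2 mutation alone and 8675 to 8729 in double mutant libraries. In Setd2 knockout 6 of the 15 rose and 5 fell (median 0.00), in the comparison where Clk1 rose by 1.38 and Clk4 by 1.48. Over all genes 18.7% rose and 19.9% fell there. The list was split in Setd2 knockout, which its median does not show. The heat shock genes Hspa1b (0.66), Hspa1a (0.598), Hsph1 (0.57) and Hsp90aa1 (0.26) rose, as did Fosb and Egr3. The heat shock gene Dnajb1 (-0.31) fell, as did Egr1, Ier2, Ier3 and Junb. In Srsf2 mutated against wild type 13 rose and 0 fell (median 2.22), where 28.5% of all genes rose and 27.8% fell. The adjusted p was smallest for Hspa1b, Hspa1a and Egr3, with Hspa1b at 10.4 ± 1.06 and 379 ± 29.8 CPM. The part of these 15 genes in the higher Clk1 and Clk4 of either group was not tested.

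Across the 10 libraries the genes with the pattern most like each kinase were ranked by Pearson's r of log2 CPM over 9038 genes with a mean of at least 10 CPM. The r values rest on 4 groups and describe mainly the group means. Clk1 was most like Luc7l3 (0.997), Aim2 (0.997) and Ccnl1 (0.994), and Clk4 like Impact (0.993), Zfp131 (0.992) and Brd8 (0.992). Ccnl1 had means of 79.7, 195.5, 343 and 402 CPM in wild type, Setd2 knockout, Srsf2 mutated and double mutant libraries. For Clk2 the genes were Srek1 (0.984), Ddx55 (0.982) and Firre (0.979), and for Clk3 Sowaha (0.993), Cdr2 (0.993) and Otub2 (0.991). Cdr2 had 6.09, 17.2, 25.2 and 138 CPM in the same order, a wider span than that of Clk3. For Prpf4b they were Krit1 (0.990), Mdm4 (0.983) and Usp48 (0.978), and for Srpk1 Nop14 (0.982), Slc18a2 (0.979) and Ankrd26 (0.979). Srpk2 (9930111J21Rik2 at 0.972, Wdfy3 at 0.945 and Wnk1 at 0.944) and Dyrk1a (Bap1 at 0.944, Tle1 at 0.926 and Tgfbr1 at 0.920) had lower values.

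The authors' deposited table for double mutant against Srsf2 mutated gave Clk3 a log2 fold change of 0.70 (SE 0.25; adjusted p = 0.0637). For Srpk2 the authors' deposited table gave 0.35 (SE 0.417; adjusted p = 0.806) and for Clk4 0.14 (SE 0.313; adjusted p = 0.925). For these 3 genes the directions were those found from the counts, and the errors were wider. Clk1, near 0 in both, had -0.03 (SE 0.388) in the authors' deposited table and 0.04 from the counts, and Dyrk1a had no adjusted p in the authors' deposited table. The mean count in the authors' deposited table for this comparison was not the mean of these 10 libraries (ratio 0.254 to 3.73 from the 5th to the 95th percentile), and the libraries behind it are not given in the sources used here.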

How the data were processed

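Whole-number counts per gene (GENCODE M21 genes) for 10 bulk libraries came in 3 deposited tables; 5 libraries stood in 2 of them with identical counts. The submitters' processing notes name the counters featureCounts 2.0.1 and HTSeq 0.9.1, the aligners STAR 2.6.1a and HISAT2 2.0.5, and DESeq2 1.22.2, without saying which made which file. FPKM values deposited by the authors equal count over length over library total, and were used only for that check. The authors' log2 fold changes, p-values and mean-count scores were deposited for 3 comparisons and are quoted only where named. From the counts, edgeR 4.0.16 was fitted (TMM, filterByExpr, 1 term per group over all 10 libraries, quasi-likelihood test) to 19289 genes, with Benjamini-Hochberg adjustment over all of them and a threshold of 0.05. SE is the log2 fold change over the square root of F. TPM was computed from counts and listed lengths. Replicate pairs differed beyond sampling noise (chi-square per degree of freedom 5.42 to 45.4), so no library was counted as a duplicate. The kinases and gene lists were chosen with earlier results of these data known. Beside the kinases, the genes named in a list are the called ones of smallest adjusted p, up to 3 per list and comparison. Others in small counts were named after their values were seen. Likeness used log2(CPM + 1). Alternatives were median-of-ratios and upper-quartile scaling, no filter, a mean of at least 10 CPM, 2 groups only, DESeq2 1.42.0, a replicate block, and leaving out each library. The fitting was tested on simulated data. Single-cell samples were not analysed here.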

Additional observations from a re-analysis of the deposited data

Results flagged for a closer look

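The difference between groups with and without the Setd2 knockout was not the same in both Srsf2 backgrounds for 6 of the 8 kinases, by the interaction in edgeR's quasi-likelihood fit. Over all genes tested 31.9% were called in the interaction, 16.7% higher and 15.2% lower. The log2 value was -1.34 for Clk1, -1.27 for Clk4, -0.91 for Clk2, -0.89 for Prpf4b and -0.84 for Srpk1, each lower in the Srsf2 mutated background, and 0.57 for Srpk2, which was higher there. The Srpk2 call ended without Setd2 knockout replicate 2 (0.42, adjusted p = 0.0754). Sex-linked genes differed between Setd2 knockout and wild type, from which these values cannot be told apart.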

How the results depend on the processing

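Over 56 kinase values (8 genes in 7 comparisons), 32 of 38 calls held in every alternative, and of 944 alternative values 890 kept their side of the threshold. Those 890 include values called in neither fit whose direction changed, such as Clk1 in double mutant against Srsf2 mutated (-0.0142 to 0.0728 over the alternatives). The only value that changed direction with a call in either fit was Srpk1 in double mutant against wild type. It was 0.159 (adjusted p = 0.0357) with a minimum of 10 CPM, where all 8 kinases were called instead of 5. That filter tests fewer genes, recomputes the scaling on them and gave 4923 in place of 7449 genes called in Setd2 knockout against wild type, 6123 for 10869 in Srsf2 mutated against wild type, 6464 for 10000 in double mutant against Setd2 knockout, 6784 for 12153 in double mutant against wild type and 5879 for 8925 in Srsf2 mutated against Setd2 knockout. A smaller count under that filter need not be a smaller share of the genes tested, and that share was not computed. The likeness ranking, also at a mean of at least 10 CPM, held 9038 genes, beside 19289 tested in the main fit. Leaving out 1 library gave 4792 (without Setd2 knockout replicate 1) to 8803 genes in Setd2 knockout against wild type, and 2 to 5 kinases in double mutant against Srsf2 mutated and 3 to 6 in Srsf2 mutated against Setd2 knockout. For Srsf2 mutated against wild type the range was 5 to 8 kinases. With upper-quartile scaling 5 in place of 3 SR protein genes were called in double mutant against Srsf2 mutated, and 6 in place of 1 tri-snRNP genes in the interaction; the cause was not tested.

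Replicate numbers did not pair the libraries (correlations of -0.0278 to 0.0398 over 13 same-numbered pairs). With the replicate block 3 calls were gained, Clk3 in the interaction (adjusted p = 0.0462) and in Srsf2 mutated against Setd2 knockout (adjusted p = 0.032) and Srpk2 in double mutant against Setd2 knockout (adjusted p = 0.0191), and 1 was lost, Clk4 in Srsf2 mutated against Setd2 knockout (adjusted p = 0.0588); the block changed no other kinase call.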
